A study of Homo sapiens with 42 samples.

Results

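The peaks of N6-methyladenosine (m6A) on chromosome 13 were described in HepG2 cells, a human hepatocellular carcinoma line, in which a component of the m6A writer or the histone methyltransferase SETD2 had been knocked down. Members were all peaks that the authors' tables place on this chromosome, with repeated rows counted once, which gave 2578 of 211410 peaks over 7 lists. The chromosome was selected on its absent shares, since many of its control peaks were missing after METTL14 and WTAP knockdown, so those losses are a description and carry no test. In m6A-seq, an m6A antibody enriches methylated fragments of mRNA, which are sequenced beside the unselected input, and a peak is a stretch where the pulled-down reads exceed the input.

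The 42 libraries form 14 groups of 3, an input and a pulled-down group for each of 7 conditions. All cells carried a lentiviral short hairpin RNA (shRNA) under puromycin: shMETTL3, shMETTL14, shWTAP or shSETD2#1 with the control shCtrl, and shSETD2#2 with an shCtrl of its own, called the second control here. Whether these 2 sets of conditions were made at the same time is not in the labels, so a difference from the second control can hold a difference between the sets, and the 2 cannot be told apart. Whether replicates 1 to 3 were separate cultures is not in the labels, and every peak list pools them. No value below therefore has a replicate error or a test between conditions. Intervals are exact 95% Clopper-Pearson intervals of a share, which cover counting error only. The METTL3, METTL14, WTAP and SETD2 #1 lists are all set against the same control list, so their shares are not independent of each other. How far each knockdown reduced its target, and the liver markers of HepG2, were not checked, because the peak tables give gene identifiers without names and no transcript level.

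METTL3 is the catalytic subunit of the nuclear m6A writer, METTL14 the partner subunit that helps it bind RNA, and WTAP an adaptor that brings the pair to nuclear speckles. SETD2 methylates histone H3 along transcribed genes. In mammalian mRNA the mark lies mostly in long internal exons and around stop codons, and a gene can carry several peaks. Absence of a peak from a list means that none was called there. Methylation, transcript level and read depth all bear on that, and their parts were not tested.

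The chromosome held fewer peaks in the 3 writer knockdown lists and in SETD2 #1 than in the control. There were 352 peaks in the METTL3 list, 307 in the METTL14 list, 316 in the WTAP list and 346 in the SETD2 #1 list, against 435 in the control list. The METTL14 list was 29.4% shorter than the control list on chromosome 13 and 14.3% shorter over all chromosomes, and the WTAP list 27.4% and 12.7% shorter. For METTL3 the values were 19.1% and 9.86%, and for SETD2 #1 20.5% and 14.9%. SETD2 #2 had 409 peaks, against 413 in the second control, 0.969% shorter on chromosome 13 and 6.37% shorter over all chromosomes. The exonic length under peaks was 86.4 kb in the METTL14 list and 93.7 kb in the WTAP list, against 143 kb in the control list. Over all chromosomes it was shorter too, 9.96 Mb and 10.2 Mb, against 12.7 Mb in the control list.

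A control peak counted as absent where the searched list held no peak sharing at least 1 base of its exon blocks on the same strand. Of the 435 control peaks on chromosome 13, 195 were absent from the METTL14 list (44.8%, 40.1 to 49.6), where 29.8% of all control peaks were absent. From the WTAP list 187 were absent (43.0%, 38.3 to 47.8), where the background was 28.8%. From the METTL3 list 144 were absent (33.1%, 28.7 to 37.7), against a background of 22.8%. The SETD2 #1 list lacked 139 (32.0%, 27.6 to 36.6), against a background of 27.0%. In each of these lists chromosome 13 had the highest absent share of the 23 chromosomes with at least 100 control peaks. The next was chromosome 4 at 38.1% for METTL14, chromosome 18 at 35.6% for WTAP and 27.9% for METTL3, and chromosome 5 at 31.0% for SETD2 #1.

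The second control and SETD2 #2 lists did not show this excess. The second control list lacked 129 control peaks (29.7%, 25.4 to 34.2), close to the background of 28.6%, and chromosome 13 ranked 9 of 23. Of the 413 second control peaks, 81 were absent from the SETD2 #2 list (19.6%, 15.9 to 23.8), with a background of 20.5%. Counted the other way, however, 87 second control peaks were absent from the control list (21.1%, 17.2 to 25.3), with a background of 15.6%, and chromosome 13 ranked 1 of 23. The 2 controls thus differed more on chromosome 13 than elsewhere in 1 of the 2 directions. Relative to the other chromosomes that share was 1.85 to 5.8 points higher under the other limits tried on overlap, false discovery rate, fold and p-value, with 1 exception. The exception was an overlap that had to cover 50% of both peaks, with 38.3% absent on chromosome 13 and a background of 40.8%. Under this stricter rule the shares were 59.1% for METTL14 (background 45.2%), 57.0% for WTAP (background 43.8%), 43.4% for METTL3 (background 35.1%), 42.3% for SETD2 #1 (background 38.9%), 30% for SETD2 #2 (background 31.9%) and 41.8% for control peaks in the second control (background 45.2%).

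**Figure D1:**
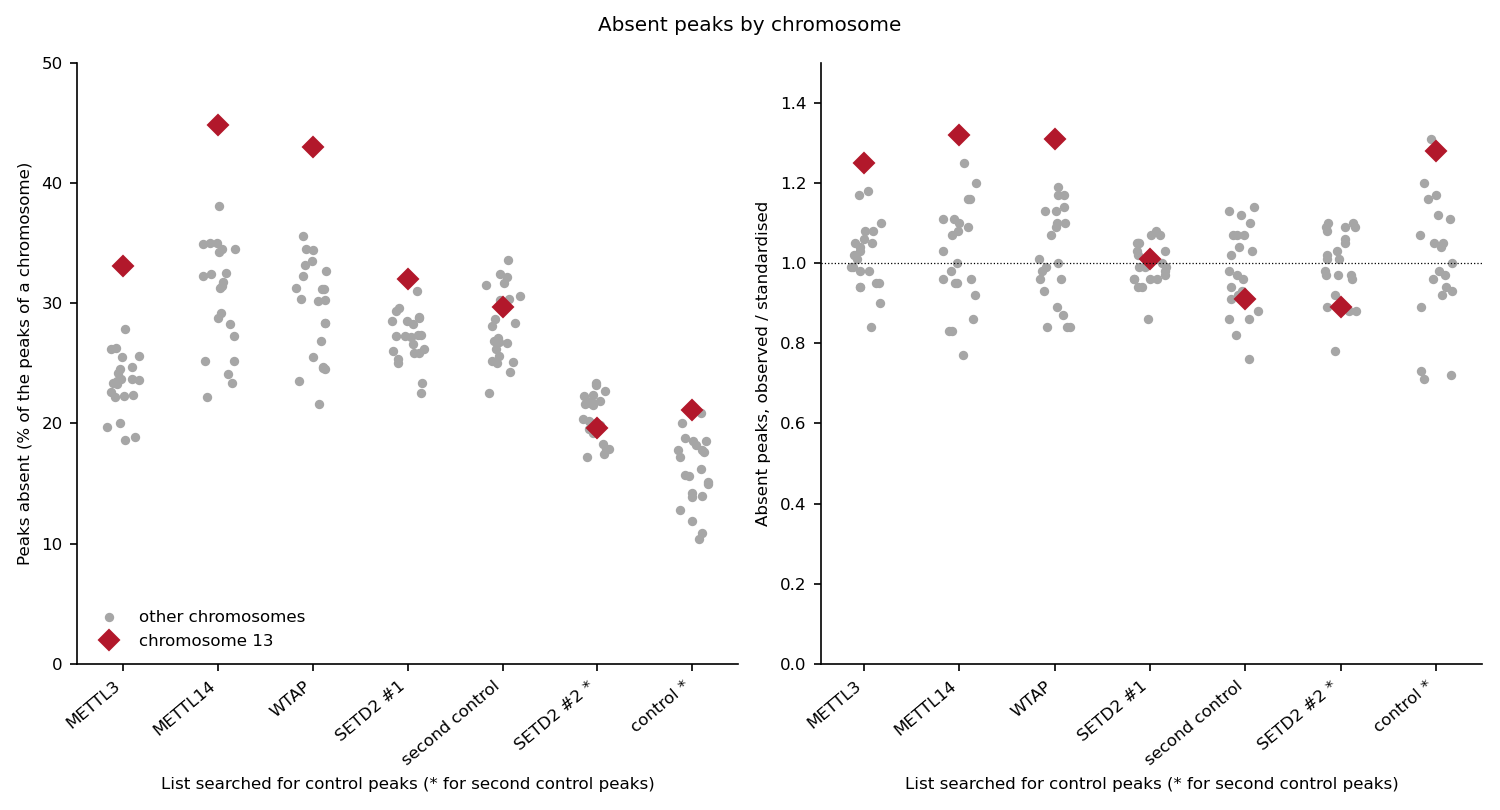
Share of peaks absent (left, % of the peaks of a chromosome) and number absent over the standardised number (right), for each list searched; diamonds are chromosome 13, grey points the other chromosomes with at least 100 peaks, and starred lists were searched for second control peaks. Chromosome 13 lies above every other chromosome for METTL3, METTL14 and WTAP in both panels, with ratios of 1.25, 1.32 and 1.31. In the right panel it lies inside their range for SETD2 #1 (1.01) and the second control (0.91). For second control peaks absent from the control it is highest in the left panel. In the right panel its ratio for these is 1.28, below chromosome 2 (1.31).

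Control peaks on chromosome 13 were weaker than those of the whole list. The median log10 p-value was -8.52 on chromosome 13 and -11.8 over all control peaks, and the median fold enrichment of pulled-down over input reads was 6.19 and 6.79; both are the authors' values. Weak peaks are absent more often, so the absent share was also set against peaks of like strength. The whole list was cut into 5 equal classes by p-value, and a standardised number was computed, the number that would be absent if each class on chromosome 13 had the absent share of the same class elsewhere. For METTL14 the 195 absent peaks stood against a standardised 148, a ratio of 1.32. For WTAP 187 stood against 143 (1.31), and for METTL3 144 against 116 (1.25). These were the highest ratios of the 23 chromosomes, the other chromosomes reaching 1.25 for METTL14, 1.19 for WTAP and 1.18 for METTL3.

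For SETD2 #1 the number absent was close to the standardised number, 139 against 137, a ratio of 1.01. For the second control 129 were absent, against 142 (0.91), and for SETD2 #2 81, against 90.5 (0.89). Second control peaks absent from the control list numbered 87, against 67.9, a ratio of 1.28. This ranked 2 of the 23 chromosomes, with chromosome 2 at 1.31. With classes by fold enrichment in place of p-value, the ratios were 1.42 for METTL14, 1.39 for WTAP and 1.37 for METTL3. They were 1.12 for SETD2 #1, 0.95 for SETD2 #2 and 0.99 for the second control. For second control peaks absent from the control the ratio was 1.26.

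The excess for METTL14 and WTAP was widest in classes 3 and 4. None of the 63 control peaks in the best class was absent from the METTL14 or the WTAP list, which leaves an upper limit of 5.69%. In class 3 43.3% were absent from METTL14 and 40% from WTAP on chromosome 13, against 26.2% and 25.4% on the other chromosomes. In class 4 the shares were 64.8% and 63.8% on chromosome 13, against 46.9% and 45.3% elsewhere. For the second control the same classes had 17.8% and 41.0% on chromosome 13, below the 22.3% and 43.8% of the other chromosomes. In the opposite direction, second control peaks in class 4 were absent from the control in 33.3% (24.2 to 43.5) on chromosome 13, against 20.3% elsewhere, and in class 3 in 15.1%, against 13.2%. So the controls differed more than elsewhere in class 4 in that direction. The better-scoring part of the control list, up to its median p-value, held 178 peaks of chromosome 13. Of these, 26 were absent from METTL14 (14.6%, background 7.9%), 27 from WTAP (15.2%, background 7.41%), 10 from METTL3 (5.62%, background 2.42%), 7 from SETD2 #1 (3.93%, background 3.24%) and 16 from the second control (8.99%, background 7.28%). In the same part of the second control list, 8 of 190 peaks were absent from SETD2 #2 (4.21%, background 2.66%) and 15 from the control (7.89%, background 6.06%).

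**Figure D2:**
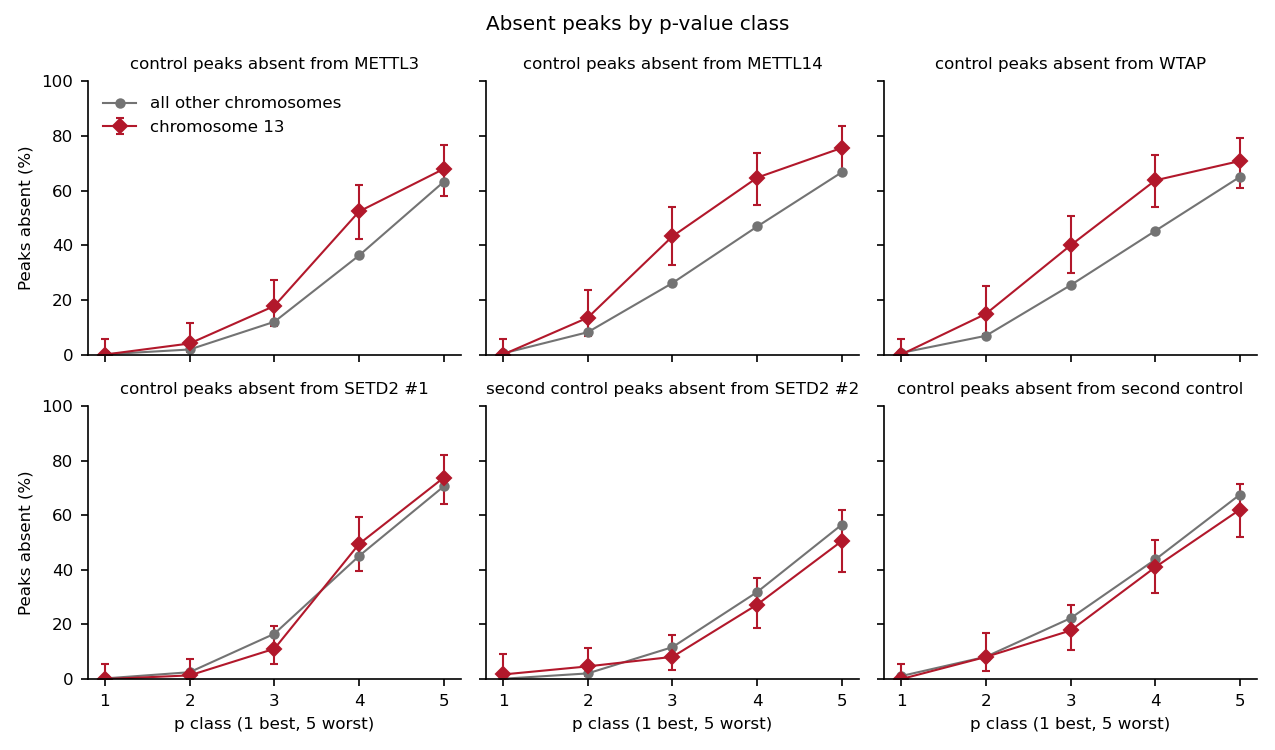
Share of peaks absent (%) in 5 classes of p-value, from best to worst, for chromosome 13 (diamonds, bars are exact 95% intervals) and all other chromosomes (circles). The chromosome 13 line runs above the other chromosomes for METTL3, METTL14 and WTAP in classes 2 to 5. In class 3 43.3% were absent from METTL14, against 26.2%. Its intervals hold the other chromosomes' shares in every class for SETD2 #1, SETD2 #2 and the second control. They also hold them for METTL3 in classes 2, 3 and 5, for METTL14 in classes 2 and 5 and for WTAP in class 5. Second control peaks absent from the control are not drawn.

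The METTL14 and WTAP losses were largely of the same peaks: 164 control peaks were absent from both lists, which was 84.1% of the METTL14 losses and 87.7% of the WTAP losses. Such overlap was high on the other chromosomes too, at 76.3% and 79.1%. They made up 37.7% of the control peaks on chromosome 13 and 22.6% on the other chromosomes. Of the 164, 114 were also absent from the METTL3 list (69.5%, elsewhere 68.5%) and 91 from the SETD2 #1 list (55.5%, elsewhere 66.4%).

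Fewer of these shared losses were absent between the controls on chromosome 13 than elsewhere. Of the 164, 69 were also absent from the second control list (42.1%, 34.4 to 50), and 95 were called there. On the other chromosomes 53.4% of the METTL14 and WTAP shared losses were missing from the second control too. Whether the absent ones were the minority depended on the rule: 56.2% were absent with an overlap of 50% of both peaks (65.5% elsewhere) and 58.0% with a fold of at least 3 (63.9% elsewhere). Under each rule tried, the share on chromosome 13 was below that elsewhere. Its interval held the value elsewhere with the false discovery rate limit (11.9 to 33.7, elsewhere 32.8%) and the fold limit (48.3 to 67.3). The same was so in the authors' shorter lists (39.1 to 59.0, elsewhere 53.6%) and with the p-value limit (5.73 to 43.7, elsewhere 23.4%). Because the chromosome was chosen for its METTL14 and WTAP losses, a lower share among them carries no test. The 95 peaks absent from both knockdown lists but present in the second control were 21.8% of the control peaks of chromosome 13, and 10.5% elsewhere. Of the METTL14 losses taken alone 41.0% were absent from the second control, and of the WTAP losses 40.6%. Among the 20 shared losses in the better-scoring part of the list, 4 were absent from the second control (20%), close to the 23.4% elsewhere. At the other end, 38 control peaks were found in no other list, 8.74% on chromosome 13 and 6.83% elsewhere, and 155 were found in all 6 others, 35.6% and 45.9%.

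Counting from the second control's peaks gave higher shares and ratios than counting from the control's peaks. Of its 413 peaks, 200 were absent from the METTL14 list (48.4%, background 31.0%, 1.48 times the standardised 135) and 200 from the WTAP list (48.4%, background 30.7%, 1.5 times 133). From the METTL3 list 157 were absent (38.0%, background 24.7%, 1.46 times 107) and from the SETD2 #1 list 146 (35.4%, background 25.7%, 1.30 times 113). In that count SETD2 #1 was above its standardised number too. So was the control list, which lacked 87 of these peaks (21.1%, background 15.6%, 1.28 times 67.9). A difference between the 2 sets of conditions can enter this count and cannot be told apart from a knockdown.

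The losses were spread along the chromosome. Among the windows of 10 Mb with at least 20 control peaks, the METTL14 and WTAP shares were highest at 50 to 60 Mb (hg19) and lowest at 110 to 120 Mb. Between 50 and 60 Mb the control list had 52 peaks on 26 genes. Of these, 33 were absent from METTL14 (63.5%, 49.0 to 76.4, standardised 19.1) and 33 from WTAP (63.5%, standardised 18.4). The METTL3 list lacked 22 (42.3%, standardised 14.7) and the SETD2 #1 list 21 (40.4%, standardised 17.5), while 10 were absent from the second control (19.2%, 9.63 to 32.5, standardised 18.3). All these shares are of the same 52 peaks, some of which overlap each other, and the window is named because its METTL14 share was highest. Of the 32 peaks in this segment absent from both METTL14 and WTAP, 25 were called in the second control.

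Between 110 and 120 Mb, which held 88 control peaks on 32 genes, the order was different. From METTL14 29 were absent (33.0%, 23.3 to 43.8, standardised 32.3) and from WTAP 25 (28.4%, standardised 31.2), against 31 (35.2%, standardised 31.1) from SETD2 #1 and 34 (38.6%, standardised 31.4) from the second control. The METTL14 and WTAP numbers were both below their standardised numbers, WTAP by more. In the remaining windows with at least 20 control peaks, the METTL14 share was 40.3% at 20 to 30 Mb, 55.3% at 30 to 40 Mb, 40.6% at 40 to 50 Mb, 51.4% at 70 to 80 Mb, 50% at 90 to 100 Mb and 45.7% at 100 to 110 Mb. The second control shares in the same windows were 26.4%, 29.8%, 25.0%, 27.0%, 38.5% and 37.1%. The METTL14 share was the higher in each of them. Counted the other way, second control peaks were absent from the control in 27.3%, 23.4%, 23.9%, 22.2%, 33.3% and 0% in these windows. The share was 20% at 50 to 60 Mb and 9.68% at 110 to 120 Mb, with a background of 15.6%. It was thus above the background in each listed window up to 100 Mb and below it beyond. Like the METTL14 and WTAP shares, it was lower at 110 to 120 Mb than at 50 to 60 Mb. It has no interval here. With windows of 20 Mb the WTAP share was highest at 60 to 80 Mb, at 56.4% of 39 peaks, against 50% at 40 to 60 Mb.

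**Figure D3:**
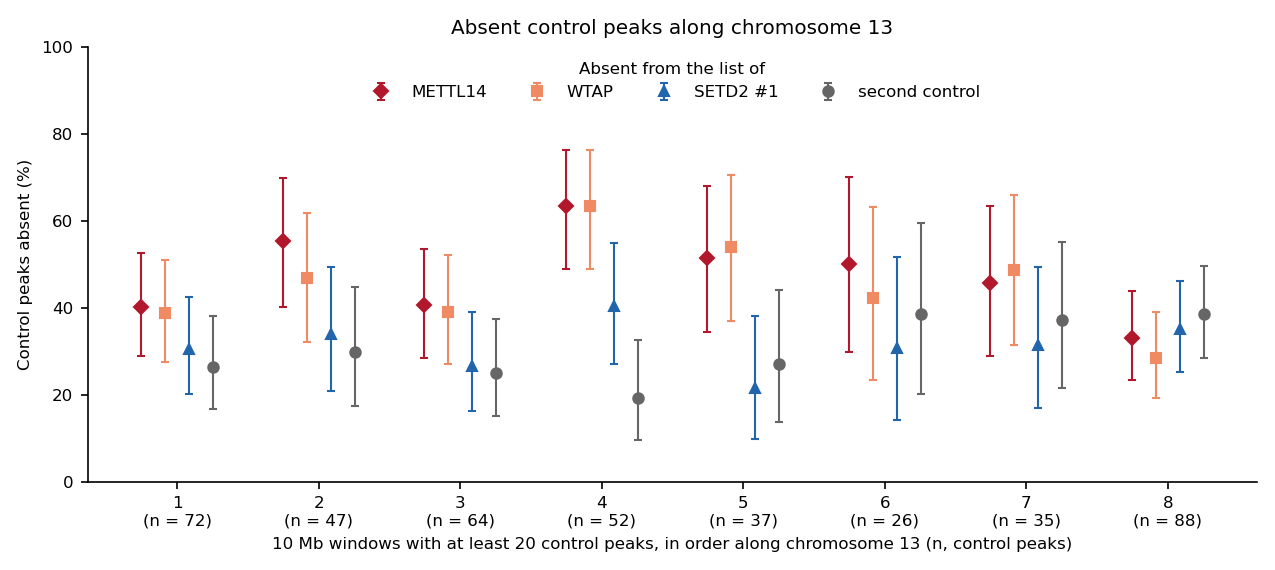
Share of control peaks absent (%) in the 8 windows of 10 Mb with at least 20 control peaks, in order along chromosome 13; bars are exact 95% intervals. Window 4 is 50 to 60 Mb, where METTL14 and WTAP stand at 63.5% and the second control at 19.2%. Window 8 is 110 to 120 Mb, where METTL14 is at 33.0%, WTAP at 28.4% and the second control at 38.6%. Second control peaks absent from the control are not drawn.

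The losses were spread over many genes. The 195 peaks absent from METTL14 lay on 128 of the 215 genes with a control peak, with at most 5 on one gene, and the 187 absent from WTAP lay on 127. The 10 genes with 3 or more peaks absent from METTL14 held 38 of the 195 (19.5%, elsewhere 20.9%), and the 9 such genes for WTAP held 34 of the 187 (18.2%, elsewhere 19.7%). Of the absent peaks, 118 of 195 for METTL14 and 117 of 187 for WTAP lay on genes with some peak in that list, kept or gained. On the other chromosomes these counts were 6454 of 9851 and 6412 of 9503. Genes with several control peaks lost 46.1% of them in METTL14 and genes with a single control peak 40.4%, while on the other chromosomes the order was the opposite, 28.6% and 34.5%.

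Whole genes also dropped out. Of the 215 genes, 55 had no peak in the METTL14 list (25.6%, 19.9 to 32.0, other chromosomes 17.9%) and 51 none in the WTAP list (23.7%, 18.2 to 30.0, other chromosomes 16.5%). The METTL3 list had none for 35 genes (16.3%, other chromosomes 12.9%), the SETD2 #1 list for 39 (18.1%, other chromosomes 15.1%) and the second control for 30 (14%, other chromosomes 13.4%). Of the 55 genes without a METTL14 peak, 15 had none in the second control either (27.3%, elsewhere 38.7%), as did 13 of the 51 for WTAP (25.5%, elsewhere 37.9%).

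The genes with the most absent peaks are given by their span of control peaks in hg19, as the tables pair their Ensembl identifiers with no symbol. At chr13:108861130-108867851 on the minus strand (ENSG00000174405.13, gene 11 in the map of peaks per gene) the METTL14 list had 0 peaks and the WTAP list 0, the METTL3 list 2 and the SETD2 #1 list 2, against 5 in the control. The second control had 2, so 3 of its 5 control peaks were absent between the controls too. At chr13:31205091-31233469 on the plus strand (ENSG00000132952.11, gene 3) METTL14 and WTAP lacked 4 of 5 control peaks each and the second control lacked 3. At both of these genes the controls differed from each other by more than one peak.

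Other genes had losses that were not seen between the controls. At chr13:52589944-52603650, plus strand (gene 6), METTL14 and WTAP each lacked 4 of the 5 control peaks, METTL3 lacked 1, and SETD2 #1 and the second control lacked 0. The same counts came from a second identifier on that strand at chr13:52598827-52605375 (gene 7), which overlaps it, so the pair is not independent. At chr13:26788321-26796362, minus strand (gene 2), METTL14 lacked 2, WTAP 3, METTL3 3 and SETD2 #1 1 of 4 control peaks, and the second control 0. At chr13:79894714-79980283, minus strand (gene 10), all 3 control peaks were absent from METTL14, 2 from WTAP and none from the second control. There METTL3 and SETD2 #1 lacked 1 each and SETD2 #2 lacked 2. Intermediate genes lay at chr13:52158651-52340703, plus strand (gene 5), where METTL14 and WTAP lacked 3 of 4 peaks each and the second control 1, and at chr13:77619271-77901185, minus strand (gene 9), with 4 of 5 for each and 2 for the second control. At chr13:73633106-73650123, plus strand (gene 8), 3 of 4 were absent from METTL14, from WTAP and from METTL3, and 2 from the second control.

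In the 110 to 120 Mb segment genes went both ways. Of its 32 genes, 9 lacked more control peaks in METTL14 than in the second control, 13 lacked as many and 10 lacked fewer. At 50 to 60 Mb, the segment named for its METTL14 share, these counts were 15, 10 and 1 of 26 genes. Some of those genes overlap on the same strand, as genes 6 and 7 do, so they are not separate counts. No such count was made for the other chromosomes. The gene at chr13:113344643-113540463 on the plus strand (gene 12) lacked 2 of 7 control peaks in METTL14 and in WTAP, and 1 in the second control. At chr13:114056858-114060868, minus strand (gene 14), the METTL14 list had 10 peaks, the WTAP list 7 and the METTL3 list 6, with 5 in the control, while SETD2 #1, SETD2 #2 and the second control had 0. Its best control peak had a log10 p-value of only -2.41. At chr13:114541103-114548447, plus strand (gene 15), METTL14 lacked 3 of 5 control peaks, WTAP 2, METTL3 4, SETD2 #1 5 and the second control 5. The gene with the most control peaks, at chr13:113610927-113753813 on the plus strand (gene 13), lacked 5 of 12 in METTL14, 4 in WTAP, 3 in METTL3, 5 in SETD2 #1 and 8 in the second control. At genes 13, 14 and 15 the second control lacked more control peaks than the METTL14 or the WTAP list did.

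**Figure D4:**
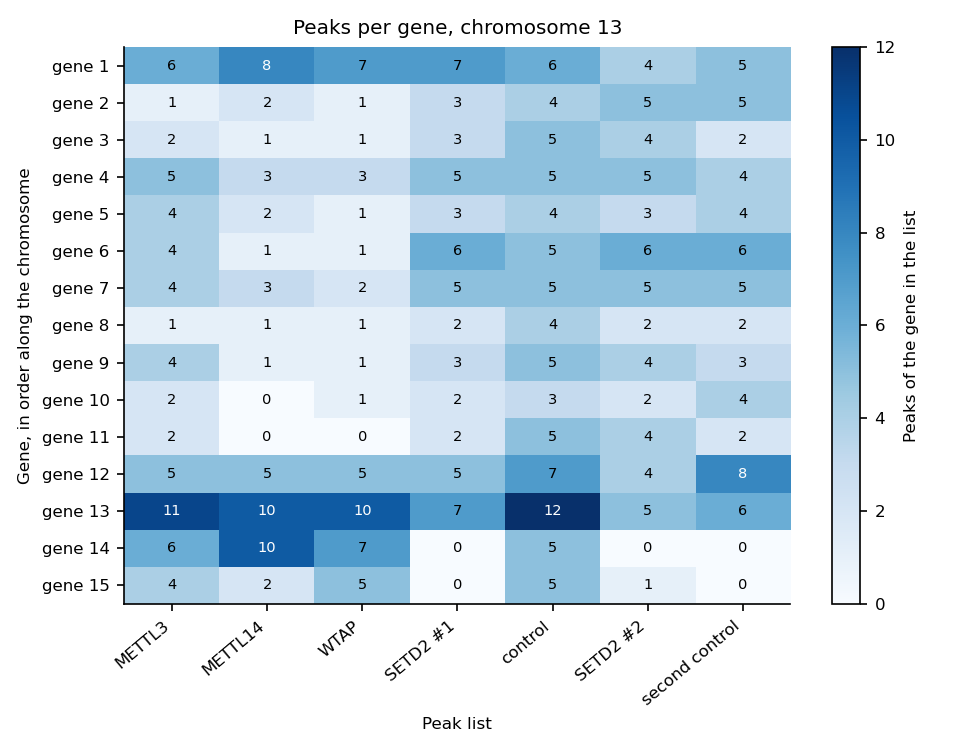
Number of peaks per gene in each list, for the 15 genes of chromosome 13 with at least 5 control peaks or at least 3 peaks absent from METTL14 or WTAP, in order along the chromosome. Genes 2 to 11 have fewer peaks in METTL14 and WTAP than in the control, with 0 of 5 left on gene 11, while gene 14 has 10 and 7 peaks in METTL14 and WTAP and 0 in SETD2 #1, SETD2 #2 and the second control.

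The 10 shared losses with the best p-values had enrichments of 1.49- to 8.41-fold in the control. The one with the best p-value lay at chr13:24144509-24144838 on the plus strand and had 8.41-fold enrichment and a log10 p-value of -46.5 in the control. It had no overlapping peak in METTL14 or WTAP and overlapping peaks of 3.51-fold in METTL3, 4.82-fold in SETD2 #1, 6.87-fold in SETD2 #2 and 4.26-fold in the second control. Each list was called separately, so these folds show that a peak was called and are not compared further. The next by p-value, at chr13:55014839-55015072 on the minus strand, was absent from METTL3 as well, with 1.49-fold in the control and 2.46-fold in the second control. The third, at chr13:41508083-41515273 on the minus strand, had 2.78-fold in the control and was called in METTL3, SETD2 #1, SETD2 #2 and the second control. Of the 10 best by p-value, 2 were absent from the second control, at chr13:21548700-21548970 on the minus strand and chr13:31232210-31232450 on the plus strand. Both were called in SETD2 #1 and in SETD2 #2. The remaining 8 had a peak in both controls. Others among the 10 lay at chr13:111545133-111545491 on the minus strand, with 3.44-fold in the control and 3.74-fold in the second control, and at chr13:31903758-31903996 on the plus strand, the single control peak of its gene, with 4.89-fold and 3.41-fold. By fold enrichment, 2 shared losses tied for the highest value, 20.6-fold in the control at a log10 p-value of -5.37. The one at chr13:115000481-115000570 on the plus strand was absent from METTL3 and SETD2 #1 as well and had 12.2-fold in the second control. The other, at chr13:113341591-113341859 on the minus strand, had 5.92-fold in METTL3, 18.9-fold in SETD2 #1 and 14.5-fold in the second control.

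The 5 control peaks with the best p-values had an overlapping peak in every other list. The peak at chr13:75933922-75936628 on the minus strand, which had the best p-value, had 24.7-fold enrichment in METTL14, 18.9-fold in WTAP, 25.1-fold in METTL3, 13.9-fold in SETD2 #1 and 40.8-fold in the control, with 5.91-fold in SETD2 #2 and 10.7-fold in the second control. The peak at chr13:46543356-46554093 on the minus strand, spread over 4 exon blocks, had 131-fold in METTL14 and 112-fold in WTAP, with 104-fold in the control. A weaker peak on the same gene, at chr13:46531084-46531383, was absent from METTL14 and WTAP with 6.86-fold in the control, so a kept and a lost peak lay on 1 gene.

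Lost peaks were narrower than kept ones, as on the other chromosomes. Control peaks absent from METTL14 had a median width of 178 bases, against 327 bases for those present, and 83.6% and 60.0% of them lay in 1 exon block. On the other chromosomes the widths were 151 and 330 bases, and 79.5% and 53.3% lay in 1 block. On chromosome 13 the absent peaks had a median fold enrichment of 3.55 in the control, against 8.96 for those present. Their median log10 p-value was -4.81, against -21.1. Elsewhere the folds were 3.86 and 8.43, and the log10 p-values -4.3 and -23.8. Peaks that were kept were also narrower in the knockdown lists. Among 202 pairs in which 1 METTL14 peak matched 1 control peak, the METTL14 peak was narrower in 76.7% on chromosome 13 and 62.2% elsewhere, with a median of 210 bases against 300.5 in the control. The share narrower was 73.8% for WTAP (62.1% elsewhere) and 66.3% for METTL3 (56.6% elsewhere). It was 65.1% for SETD2 #1 (64.9% elsewhere), 53.7% for the second control against the control (60.8% elsewhere) and 41.0% for SETD2 #2 against the second control (44.1% elsewhere).

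Losses in METTL14 were about as frequent at the 5′ as at the 3′ end of a gene's peaks. Among the 116 genes with several control peaks, the peak nearest the 5′ end alone was absent in 28 and the one nearest the 3′ end alone in 27, with both absent in 24. On the other chromosomes the first 2 counts were also even, 1542 and 1570 of 8480 genes, with both absent in 948. For WTAP the counts were 25, 29 and 20, and elsewhere 1411, 1664 and 833. For METTL3 they were 25, 21 and 12, and elsewhere 1506, 1126 and 544. In SETD2 #2 against the second control, of 115 genes, the 5′ peak alone was absent in 27 and the 3′ peak alone in 9, and elsewhere in 1736 and 756 of 8042. Between the controls, 27 genes lacked only the 5′ peak and 14 only the 3′ peak in the second control, unlike the 1392 and 1463 of 8480 elsewhere.

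Peaks present in a knockdown list with no overlapping control peak, called gained, were about as frequent on chromosome 13 as elsewhere for METTL14, WTAP, METTL3 and SETD2 #1 when 1 shared base counted as overlap. They numbered 38 of 307 in METTL14 (12.4%, background 12.7%), 43 of 316 in WTAP (13.6%, background 13.5%), 40 of 352 in METTL3 (11.4%, background 10.6%) and 27 of 346 in SETD2 #1 (7.80%, background 8.07%). In SETD2 #2, 73 of 409 had no overlap in the second control (17.8%, background 14.5%). With an overlap of 50% of both peaks, gains were above the background for METTL14 (41.7%, 36.1 to 47.4, background 35.9%) and WTAP (40.5%, 35.0 to 46.1, background 35.6%). Under that rule METTL3 had 29.8% (background 27.9%), SETD2 #1 27.2% (background 28.1%) and SETD2 #2 29.3% (background 27.2%).

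Gained peaks of METTL14 and WTAP were most numerous in the 110 to 120 Mb segment, which also held the most peaks of both lists. That segment held 15 of the 38 METTL14 gains (19.2% of its 78 peaks, 11.2 to 29.7) and 18 of the 43 WTAP gains (20.7% of 87, 12.7 to 30.7). As shares these were not set apart from every other window. Among the other windows with at least 20 METTL14 peaks, its gained share ran from 5.66% at 20 to 30 Mb to 17.9% (6.06 to 36.9) at 50 to 60 Mb. The latter window had the highest METTL14 absent share. For WTAP the range, by the same rule, was 4.08% at 40 to 50 Mb to 20% (5.73 to 43.7) at 90 to 100 Mb. METTL3 had 12 gains there (16.2% of 74), while SETD2 #1 had 1 (1.64% of 61, 0.0415 to 8.8). The gained WTAP peak with the best p-value lay at chr13:114526421-114535697 on the minus strand, over 5 exon blocks (ENSG00000183087.14), with 83.8-fold enrichment. At that place the METTL14 list had 46.4-fold and the METTL3 list 13.7-fold enrichment, and the SETD2 #1, control, SETD2 #2 and second control lists had no peak. The whole gene had 4 peaks in METTL14, 6 in WTAP and 1 in METTL3, against 0 in the control. A neighbouring gained peak at chr13:114519458-114519818 on the plus strand (ENSG00000184497.12) had 62.9-fold enrichment in WTAP, 25.0-fold in METTL14 and 9.64-fold in METTL3, with no overlapping peak in the control and 10-fold in SETD2 #2. The gained METTL14 peak with the best p-value lay at chr13:113724668-113730437 on the plus strand, on the gene with the most control peaks, with 3.59-fold in METTL14, 2.48-fold in WTAP and 2.71-fold in METTL3. It overlapped no peak of SETD2 #1, the control, SETD2 #2 or the second control.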

How the data were processed

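Per the labels' protocols, mRNA of HepG2 cells was sonicated, pulled down with an antibody to m6A and made into stranded libraries beside the input. Read checks with FastQC 0.11.5, mapping software TopHat2 2.1.1 and the build hg19 are listed in the submitters' processing notes. Per the labels, exomePeak peaks of a condition come from pooled replicates 1 to 3, so there is 1 list per condition. Neither the exomePeak version nor an annotation is given in the sources used here. The deposited tables give a p-value of pulled-down against input reads, the log10 scores of that p-value and of the FDR (false discovery rate; the largest was 0.0501), and a fold enrichment, a linear ratio. Library depth is unknown, and so is its precision. A shorter deposited list held the peaks with p-value at most 1e-05 and fold at least 2.

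Repeated rows (11 to 21 a list) were counted once. Overlap used bedtools 2.31.1, and other values Python 3.11.15, numpy 2.4.6, pandas 2.3.3 and scipy 1.17.1. In simulated data, 46.4% of the 435 chromosome 13 peaks of the control list were removed and 45.1% were called absent, because some overlap others of their list. On the other chromosomes 29.8% were removed and 27.9% called absent. Each kept peak was searched against itself, so the simulation cannot show how often shifted peaks of separately called lists count as absent. Of 17005 gene identifiers, 0 matched a symbol in the tables used here, so planned lists of chromosome 13 genes and of liver markers could not be run, and no sequence was printed. The members and lists were chosen with earlier results of these data known.

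Peaks named are the 10 best by p-value and the 10 with the highest fold among strong peaks absent from both METTL14 and WTAP (a selection is printed), the 5 best of all, and the best gained ones by p-value. Genes named have 3 or more control peaks absent from METTL14 or WTAP, none left in a list, or at least 5 control peaks. Gained peaks by segment, counts of genes by segment and the genes at the end of the long arm were looked at after their values were seen. Alternatives changed the overlap rule, the FDR, fold and p-value limits, the classes, the window size and the treatment of overlapping peaks.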

Additional observations from a re-analysis of the deposited data

How the results depend on the processing

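No paired analysis was possible because each list pools the 3 replicates of its condition, and leaving out a replicate was not possible for the same reason. When an overlap had to cover 50% of both peaks, the absent share was 59.1% for METTL14, 57.0% for WTAP, 43.4% for METTL3, 42.3% for SETD2 #1, 41.8% for the second control, 30% for SETD2 #2, and 38.3% for second control peaks in the control. With peaks of an FDR of at most 1e-05 the shares were 28.3%, 27.9%, 15.6%, 11.2%, 12.6%, 7.92% and 10.2% in that order, and with p-values at or better than the median 14.6%, 15.2%, 5.62%, 3.93%, 8.99%, 4.21% and 7.89%. A fold of at least 3 gave 38.8% for SETD2 #1, 37.9% for the second control and 29.1% for SETD2 #2. Counting second control peaks gave 48.4% for WTAP and 38.0% for METTL3. The share of the losses common to METTL14 and WTAP that was also absent from the second control was 56.2% with the 50% overlap, 21.3% with the FDR limit, 58.0% with the fold limit and 20% with the p-value limit. The cause was not tested. Of the other settings' values for the absent shares, standardised shares and segments, 30 moved beyond the counting interval and 64 did not.

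Under every one of these limits the share on chromosome 13 minus that on the other chromosomes stayed above 0 for METTL14 (6.77 to 18.8 points), WTAP, METTL3 and SETD2 #1 (0.7 to 7.1 points), while for control peaks in the second control it changed sign (-3.4 to 1.73). For second control peaks in the control it was 1.85 to 5.8 points above 0 except with the 50% overlap (-2.5). With overlapping peaks joined, the 50 to 60 Mb segment had 60.0% absent from METTL14 and from WTAP, and 20% from the second control. With windows of 5 Mb the highest METTL14 share among windows with at least 20 peaks was 64.0% at 50 to 55 Mb.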
